A study of Mus musculus with 14 samples.

Results

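The 7 genes described here, Col2a1, Col9a1, Col9a2, Col9a3, Col10a1, Col11a1 and Col11a2, encode the chains of the cartilage collagens II, IX, X and XI. They were chosen by name, as all genes of these collagen types, and make up 7 of the 30503 genes in the count table. They were measured by bulk RNA-seq in 14 clones, each expanded in culture from a single tdTomato+ skeletal cell of the marrow of mouse femurs. The 5 Fgfr3-WT (P23) clones carried Fgfr3-creER and R26R(tdTomato/+) and came from mice at postnatal day 23. The 5 Fgfr3-p53 cKO (P28) clones, from postnatal day 28, and the 4 clones of the Fgfr3-p53 cKO (P4M) group, from 4-month-old mice, carried Trp53fl/fl beside the same alleles. Every mouse had received tamoxifen at postnatal day 21, so Cre acted in cells that used the Fgfr3 driver at that age. By the labels the Fgfr3-WT and P28 clones were at passage 8 and the P4M clones at passage 6 to 8, whereas the methods of the study give 6 to 8 for all cKO clones. The 14 clones were treated as separate samples. The labels call each a single clone and tie none to a mouse, while a legend of the study counts the same numbers as mice, so p values measure the spread between clones.

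The Fgfr3-WT libraries held 25688946 to 38958693 counts and the cKO libraries 37606033 to 52857424. Levels are given in CPM, read counts scaled to a common library total with TMM factors. Trp53, the targeted gene, was at 49.9 to 68.2 CPM in the Fgfr3-WT clones and at 1.72 to 2.84 CPM in the cKO clones. All Fgfr3-WT libraries belonged to library submission 1303 and all cKO libraries to submission 2963. Genotype, submission, depth and age therefore cannot be told apart in the comparisons with Fgfr3-WT. Time in culture and survival over passages add to these. The paper reports that wild-type clones took significantly longer than P28 cKO clones to reach the same late passage, and a smaller share reached it. Equal passage labels thus do not mean equal time in culture. P4M and P28 clones shared a submission, but they differed in age and in the passage range given by the labels. Of 7 skeletal and stromal markers, Pdgfrb (at least 233 CPM), Pdgfra, Prrx1, Nt5e, Eng and Col1a2 were detected in every clone. Col1a2, however, ranged from 0.0326 to 4354 CPM in Fgfr3-WT, with a median of 0.797 CPM, and was at 7793 CPM or more in every cKO clone. Thy1 was at 0 in 1 P28 clone and in 3 P4M clones. Endothelial Cdh5 was at 0 in all 14 clones, and leukocyte Ptprc did not exceed 0.154 CPM in any. In a bulk library, fewer cells of a type and less RNA per cell cannot be told apart.

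Collagen chains wind into a triple helix in which glycine recurs in every Gly-X-Y triplet. Collagen II forms the main fibrils of cartilage, collagen XI shares these fibrils and sets their diameter, and collagen IX sits on their surface and links them to other matrix molecules. Collagen X is a network-forming collagen of hypertrophic chondrocytes, the enlarged cells of cartilage that is being replaced by bone. The chains of collagen XI come from Col11a1, Col11a2 and, as its remaining chain, Col2a1, while collagen IX needs Col9a1, Col9a2 and Col9a3.

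The start of the longest uninterrupted Gly-X-Y stretch is shown for 5 of the genes because it shows the repeat that the chains share and that the bases within it vary. Sequences were taken from GENCODE release M21 transcripts (GRCm38, the mm10 build), begin at the named codon counted from the start codon, and have the glycine codons in capitals.
Col2a1, codons 201 to 230: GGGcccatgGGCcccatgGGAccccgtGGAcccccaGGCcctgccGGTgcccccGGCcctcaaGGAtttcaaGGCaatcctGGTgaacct
Col9a3, codons 177 to 206: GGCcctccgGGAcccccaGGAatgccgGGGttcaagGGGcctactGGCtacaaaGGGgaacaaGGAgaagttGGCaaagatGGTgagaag
Col10a1, codons 299 to 328: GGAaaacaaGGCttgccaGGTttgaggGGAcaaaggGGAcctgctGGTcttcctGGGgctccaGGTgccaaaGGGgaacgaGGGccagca
Col11a1, codons 527 to 556: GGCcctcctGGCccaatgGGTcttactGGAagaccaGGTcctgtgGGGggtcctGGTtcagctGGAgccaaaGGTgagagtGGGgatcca
Col11a2, codons 487 to 516: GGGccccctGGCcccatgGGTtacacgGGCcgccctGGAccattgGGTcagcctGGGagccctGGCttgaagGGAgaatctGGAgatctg
The longest run held 339 triplets in Col2a1, 338 in Col11a1 and in Col11a2, 113 in each of Col9a1, Col9a2 and Col9a3, and 61 in Col10a1. Over the 90 bases shown, Col11a1 and Col11a2 had the same base at 55 positions (61.1%), the largest number among the 21 pairs of these genes when each was read from the start of its run. The stretches were not aligned and start at different codons. Every glycine codon begins with GG, so part of the identity was built in, and the share does not measure how far the messages differ. No stretch of 50 bases, the read length, was common to transcripts of any pair of the 7 genes, so the chains can be told apart by reads of this length. Of the 50-base windows of Col9a3, 4.87% also lay in transcripts of Tcfl5, whose exons overlap those of Col9a3 by 234 bases on the opposite strand. Col10a1 overlaps Nt5dc1 by 18 exonic bases on the opposite strand, and Nt5dc1 was at 8.44 to 24.7 CPM in the 14 clones.

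Compared with the Fgfr3-WT clones, 4 of the 7 genes were lower in the P28 clones (Col2a1, Col9a1, Col9a3 and Col11a2) and 6 were lower in the P4M clones, where Col11a2 alone did not pass. Calls were made at an FDR of 0.05 with the quasi-likelihood test of edgeR, adjusted over all 17358 genes tested. Of all genes tested, 19.7% were called lower in P28 and 23.6% in P4M against Fgfr3-WT. The median log2 fold change of the 7 genes was -3.21 in P28 and -6.55 in P4M, beside -0.02 and -0.06 over all genes tested. None of the 7 genes was called higher in either comparison, against 19.2% and 22.3% of all genes. Between the P4M and P28 clones, Col2a1 and Col10a1 were called lower in P4M, with 3.88% of all genes called lower and 3.34% called higher there. The median of the 7 genes was -2.08 there, beside -0.01 over all genes. Taking the 9 cKO clones together, 6 of 7 genes were lower than in Fgfr3-WT (25.7% of all genes were lower and 23.1% higher), Col11a1 being the one that was not called (log2 fold change -1.06, adjusted p = 0.0945). It was called without Fgfr3-WT clone 5 (adjusted p = 0.0378) or without P4M clone 2 (adjusted p = 0.0448). These comparisons share the 5 Fgfr3-WT clones. All 7 genes passed the filter on low counts, but Col9a1 passed only through the Fgfr3-WT clones, the group where it was high, so a difference was built into its test and its calls are no support. Without it, 3 of the other 6 genes were called lower in P28 and 5 of the other 6 in P4M. Col9a2 also fell below the filter when only the cKO groups were fitted, so it reached the test with the help of the Fgfr3-WT clones. Its call in P4M, counted among those 5, is therefore given as a description. Col10a1 had at most 11 counts in any P4M library and reached the test through the Fgfr3-WT and P28 clones, where it was high. Its P4M calls, against Fgfr3-WT and against P28, are given as a description too.

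**Figure D1:**
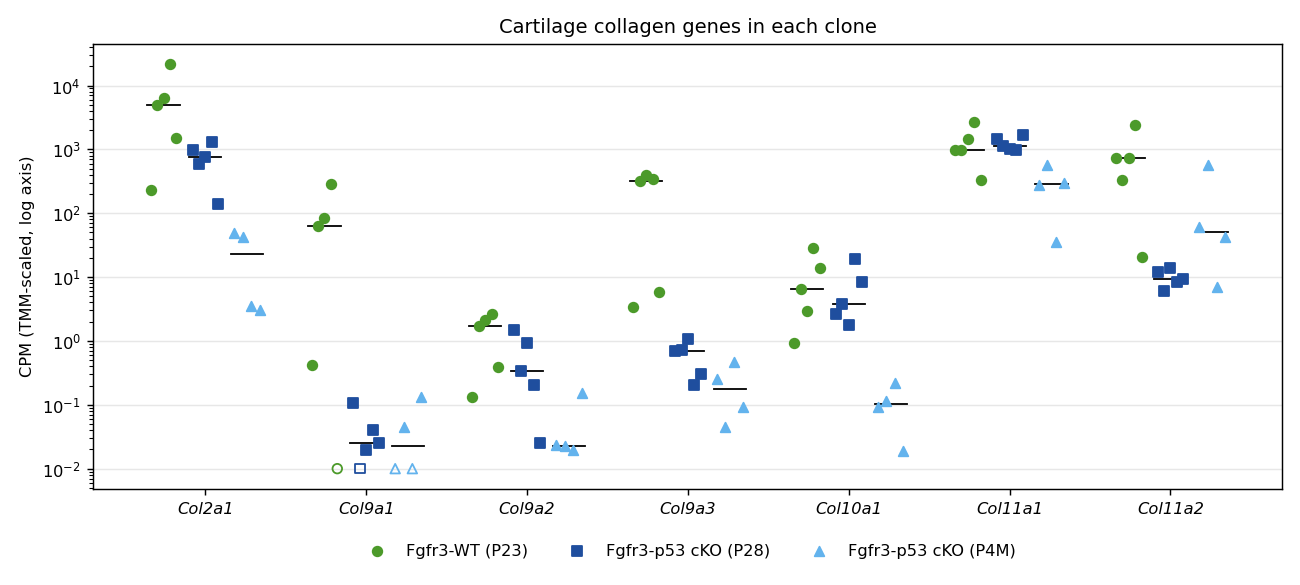
Level of each cartilage collagen gene in the 14 clones, in CPM on a log axis, with 1 symbol for each clone, a black bar at the group median, and open symbols drawn at 0.01 for clones with 0 counts. The plot shows the spread of more than 100-fold among Fgfr3-WT clones for Col9a3 and Col11a2, the narrow P28 group for Col11a1 and Col11a2, and the low P4M group for Col2a1 and Col10a1.

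Col2a1 (ENSMUSG00000022483, chromosome 15, 97975602 to 98004695, minus strand, mm10), the only chain of collagen II, was lower in P28 than in Fgfr3-WT clones and lower again in P4M clones. Its CPM was 228, 5033, 6465, 21551 and 1498 in Fgfr3-WT clones 1 to 5. The P28 clones had 974, 592, 746, 1297.5 and 138 CPM, and the P4M clones 48.9, 42.3, 3.50 and 3.03 CPM. Fgfr3-WT clone 1 lay inside the P28 range, so these groups overlapped, whereas every P4M clone lay below every other clone. The mean was 6955 ± 8544 CPM (SD, n = 5) in Fgfr3-WT, 749 ± 433 (SD, n = 5) in P28 and 24.4 ± 24.6 (SD, n = 4) in P4M. The log2 fold change against Fgfr3-WT was -3.21 (standard error 1.10, adjusted p = 0.0330) in P28 and -8.15 (standard error 1.53, adjusted p = 0.00100) in P4M. P4M was lower than P28 by a log2 fold change of -4.94 (standard error 1.31, adjusted p = 0.0389). The P28 call was lost without Fgfr3-WT clone 4 (log2 fold change -2.14, adjusted p = 0.112), without P28 clone 1, 2, 3 or 5 (adjusted p = 0.0551 to 0.0661) and without the filter on low counts (adjusted p = 0.0665). The call between P4M and P28 was lost without any of the P4M clones or P28 clones 1 to 4 (adjusted p = 0.0537 to 0.0895) and without the filter (adjusted p = 0.0754).

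Of the collagen IX chains, Col9a1 and Col9a3 nearly vanished from the counts of the cKO clones. Col9a1 (ENSMUSG00000026147, chromosome 1, 24177610 to 24252684, plus strand), which carries the arm that reaches out from the fibril, had 0.424, 62.8, 83.6, 291 and 0 CPM in Fgfr3-WT clones 1 to 5. In the P28 clones it had 0.108, 0, 0.0199, 0.0403 and 0.0256 CPM, and in the P4M clones 0, 0.0455, 0 and 0.132 CPM. These levels rest on 9 counts in the 5 P28 libraries together and on 9 counts in the 4 P4M libraries, against 13960 counts in Fgfr3-WT. Only Fgfr3-WT clones 2, 3 and 4 were well above the other libraries, and clone 5, with no count, could hold up to 0.119 CPM (3 counts, counting error only). The groups overlapped through that clone. The fitted log2 fold change was -11.01 (standard error 2.05, adjusted p = 0.00124) in P28 and -10.79 (standard error 2.24, adjusted p = 0.00186) in P4M. These values are given as a description, since the gene reached the test only through Fgfr3-WT and fell below the filter without any of Fgfr3-WT clones 1 to 4, and P4M against P28 gave 0.22 (95% interval -5.36 to 5.79, adjusted p = 0.969).

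Col9a3 (ENSMUSG00000027570, chromosome 2, 180597790 to 180622189, plus strand) had 3.36, 325, 394, 348 and 5.78 CPM in Fgfr3-WT clones 1 to 5. The P28 clones had 0.688, 0.717, 1.07, 0.201 and 0.307 CPM, and the P4M clones 0.254, 0.0455, 0.474 and 0.0940 CPM. Fgfr3-WT clones 1 and 5 again stood below the other Fgfr3-WT clones, but no cKO clone reached them. The gene was the only one of the 7 for which no cKO clone overlapped any Fgfr3-WT clone (8.38% of all genes were lower without overlap over the 9 cKO clones). The log2 fold change against Fgfr3-WT was -8.48 (standard error 1.36, adjusted p = 0.000490) in P28 and -9.93 (standard error 1.63, adjusted p = 0.000420) in P4M, and both calls were kept in all 24 alternative fits. Between P4M and P28 it was -1.45 (95% interval -4.23 to 1.34, adjusted p = 0.516).

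Col9a2 (ENSMUSG00000028626, chromosome 4, 121039385 to 121055322, plus strand), the third chain gene of collagen IX, was low in every clone. It had 0.130, 1.72, 2.14, 2.65 and 0.396 CPM in Fgfr3-WT, 1.51, 0.335, 0.934, 0.201 and 0.0256 CPM in P28, and 0.0231, 0.0228, 0.0198 and 0.150 CPM in P4M. The Fgfr3-WT and P28 ranges overlapped, and 3 of the 4 P4M libraries held a single count each. The log2 fold change was -1.22 (95% interval -3.16 to 0.72, adjusted p = 0.302) in P28 and -4.59 (standard error 1.19, adjusted p = 0.00699) in P4M against Fgfr3-WT. The P4M call is given as a description, since the gene reached the test with the help of the Fgfr3-WT clones. P4M against P28 gave -3.37 (standard error 1.14, adjusted p = 0.0862), which passed only without P28 clone 5 (adjusted p = 0.0490) and with DESeq2 (adjusted p = 0.0130).

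Col10a1 (ENSMUSG00000039462, chromosome 10, 34389981 to 34397085, plus strand), the single chain of collagen X, was detected in every Fgfr3-WT and P28 clone and was near the limit of detection in P4M clones. Its CPM was 0.945, 6.50, 2.95, 28.7 and 13.9 in Fgfr3-WT, 2.69, 3.83, 1.77, 19.4 and 8.45 in P28, and 0.0923, 0.114, 0.217 and 0.0188 in P4M. The P28 values fell inside the Fgfr3-WT range in all 5 clones, and all 4 P4M clones lay below both groups. The P4M values rest on 21 counts in 4 libraries, against 1666 counts in the 5 P28 libraries. P28 differed from Fgfr3-WT by a log2 fold change of -0.56 (95% interval -2.36 to 1.25, adjusted p = 0.629), an interval that includes differences of several fold either way. P4M was lower than Fgfr3-WT (-6.55, standard error 1.21, adjusted p = 0.000918) and lower than P28 (-5.99, standard error 1.18, adjusted p = 0.0130). Both P4M calls were kept in all 24 alternative fits. No P4M library held more than 11 counts, so the gene reached the test through the Fgfr3-WT and P28 clones, where it was high. The P4M calls and p values of Col10a1 are therefore given as a description.

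Col11a1 (ENSMUSG00000027966, chromosome 3, 114030540 to 114220718, plus strand) and Col11a2 (ENSMUSG00000024330, chromosome 17, 34039437 to 34066685, plus strand), whose products join in the same trimer, did not follow each other. Col11a1 had 992, 982, 1427, 2635 and 330 CPM in Fgfr3-WT, 1471, 1135, 1002, 987 and 1658 CPM in P28, and 278, 571, 35.9 and 301 CPM in P4M. The P28 clones lay within the Fgfr3-WT range and varied by 1.68-fold, the smallest spread of any of the 7 genes in that group. All P4M clones lay below all P28 clones. The log2 fold change was -0.03 (95% interval -1.27 to 1.22, adjusted p = 0.975) in P28 and -2.10 (standard error 0.65, adjusted p = 0.0185) in P4M against Fgfr3-WT. Between P4M and P28 it was -2.08 (standard error 0.65, adjusted p = 0.0681), a difference called without Fgfr3-WT clone 5 (adjusted p = 0.0471), with only the groups compared (0.0454) and with DESeq2 (0.00948). The call of Col11a1 in P4M was lost when only the groups compared were fitted (adjusted p = 0.0518).

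Col11a2 had 727, 334, 734, 2444 and 20.6 CPM in Fgfr3-WT clones 1 to 5. In the P28 clones it had 12.1, 5.98, 13.6, 8.52 and 9.22 CPM, all below Fgfr3-WT clone 5, the lowest of that group. The P4M clones had 59.9, 577, 6.87 and 42.7 CPM, so that clone 2 stood at the level of the Fgfr3-WT clones and clone 3 at the level of the P28 clones. In P28 the gene was lower than in Fgfr3-WT by a log2 fold change of -6.43 (standard error 1.31, adjusted p = 0.00212), a call kept in all 24 alternative fits. P4M against Fgfr3-WT gave -2.31 (95% interval -4.85 to 0.23, adjusted p = 0.125), and without P4M clone 2 it was -4.54 (adjusted p = 0.0112). P4M against P28 gave 4.12 (standard error 1.20, adjusted p = 0.0539), the only positive difference among the 7 genes beside that of Col9a1. Without P4M clone 2 this difference was 1.89 (adjusted p = 0.276). Over the alternative fits its adjusted p ranged from 0.00101 with DESeq2 to 0.276.

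**Figure D2:**
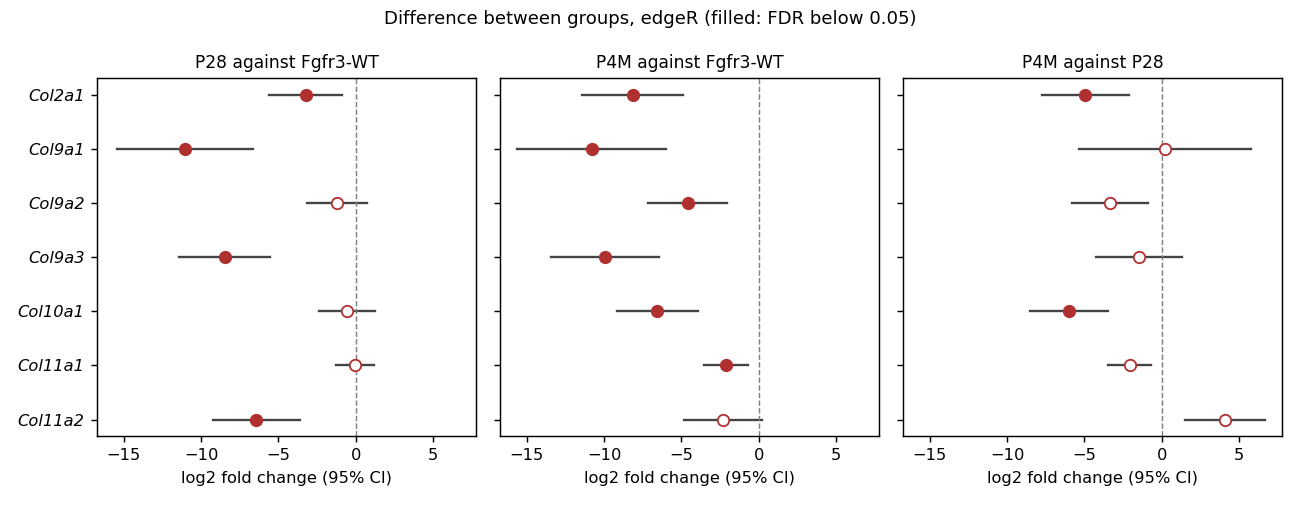
Log2 fold change of each gene in 3 comparisons from edgeR, with 95% confidence intervals, filled circles marking an FDR below 0.05. In P28 against Fgfr3-WT, Col11a1 (-0.03) and Col10a1 (-0.56) lie near 0 while Col11a2 (-6.43) does not, and in P4M against P28 Col11a2 lies on the positive side (4.12).

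By non-overlap of the groups, 2 of the 7 genes were lower in every P28 clone than in every Fgfr3-WT clone (Col9a3 and Col11a2, beside 11.5% of all genes tested). In P4M against Fgfr3-WT there were 3 (Col2a1, Col9a3 and Col10a1, beside 15.7%). In P4M against P28 there were also 3 (Col2a1, Col10a1 and Col11a1, beside 9.96%). The place of Col10a1 in both P4M counts is a description, since its P4M values were near the limit of detection.

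To ask whether partner chains changed together, 6 pairs of genes were compared as log2 ratios of CPM within each clone, in 3 comparisons, by exact two-sided permutation tests adjusted over the 18 tests. The smallest p possible was 0.00794 with 5 against 5 clones and 0.0159 with 4 against 5, so every difference at that limit has the same adjusted p of 0.0317. The ratio of Col11a1 to Col11a2 was 1.41 ± 1.55 (SD, n = 5) in Fgfr3-WT, 7.001 ± 0.55 (SD, n = 5) in P28 and 1.85 ± 1.27 (SD, n = 4) in P4M. The ratio in P28 was higher than in Fgfr3-WT by 5.59 (exact p = 0.00794, adjusted p = 0.0317) with every P28 clone above every Fgfr3-WT clone. P4M was below P28 by 5.15 in the mean, again without overlap (difference -5.15, exact p = 0.0159, adjusted p = 0.0317), and P4M against Fgfr3-WT gave 0.43 (exact p = 0.651). Most Fgfr3-WT clones had the 2 genes at similar CPM, whereas Col11a1 stood far above Col11a2 in each P28 clone.

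The ratio of Col9a3 to Col9a2 was 5.99 ± 1.86 (SD, n = 5) in Fgfr3-WT, 0.47 ± 1.24 (SD, n = 5) in P28 and 1.22 ± 1.54 (SD, n = 4) in P4M. It was lower in P28 by -5.52 (exact p = 0.00794, adjusted p = 0.0317) and in P4M by -4.77 (exact p = 0.0159, adjusted p = 0.0317) than in Fgfr3-WT, without overlap in either comparison. At the few counts of these genes in the cKO clones, the ratio there depends on the prior count of 2. With a prior count of 0.5 the call in P4M was lost (-4.37, exact p = 0.0317, adjusted p = 0.0635). For Col9a1 to Col9a2 the difference of -5.39 between P28 and Fgfr3-WT did not pass (exact p = 0.0397, adjusted p = 0.0649), though it did in TPM (-4.82, exact p = 0.0238, adjusted p = 0.0429). The ratio of Col10a1 to Col2a1 did not pass in any comparison, the largest difference being 2.54 in P4M against Fgfr3-WT (exact p = 0.127).

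Ratios to collagens of fibrous tissue and bone were compared in the same way. The ratio of Col2a1 to Col1a1, the main chain of collagen I, was 7.13 ± 6.21 (SD, n = 5) in Fgfr3-WT, -4.88 ± 1.27 (SD, n = 5) in P28 and -10.66 ± 1.34 (SD, n = 4) in P4M. Among the Fgfr3-WT clones it was 9.36, 11.37 and 13.81 in clones 2, 3 and 4 but 0.57 and 0.54 in clones 1 and 5. All 3 groups were apart without overlap, by -12.01 in P28 and -17.80 in P4M against Fgfr3-WT and by -5.79 in P4M against P28, each at adjusted p = 0.0317 (exact permutation test). The ratio of Col11a1 to Col5a1, a collagen V chain that occupies in collagen I fibrils the place of Col11a1 in collagen II fibrils, was 1.83 ± 1.72 (SD, n = 5) in Fgfr3-WT, -0.76 ± 0.42 (SD, n = 5) in P28 and -3.64 ± 1.33 (SD, n = 4) in P4M. It was lower in P4M than in both other groups (-5.47 and -2.88, each at adjusted p = 0.0317, exact permutation test), while the difference of -2.59 in P28 against Fgfr3-WT did not pass (exact p = 0.0397, adjusted p = 0.0649).

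**Figure D3:**
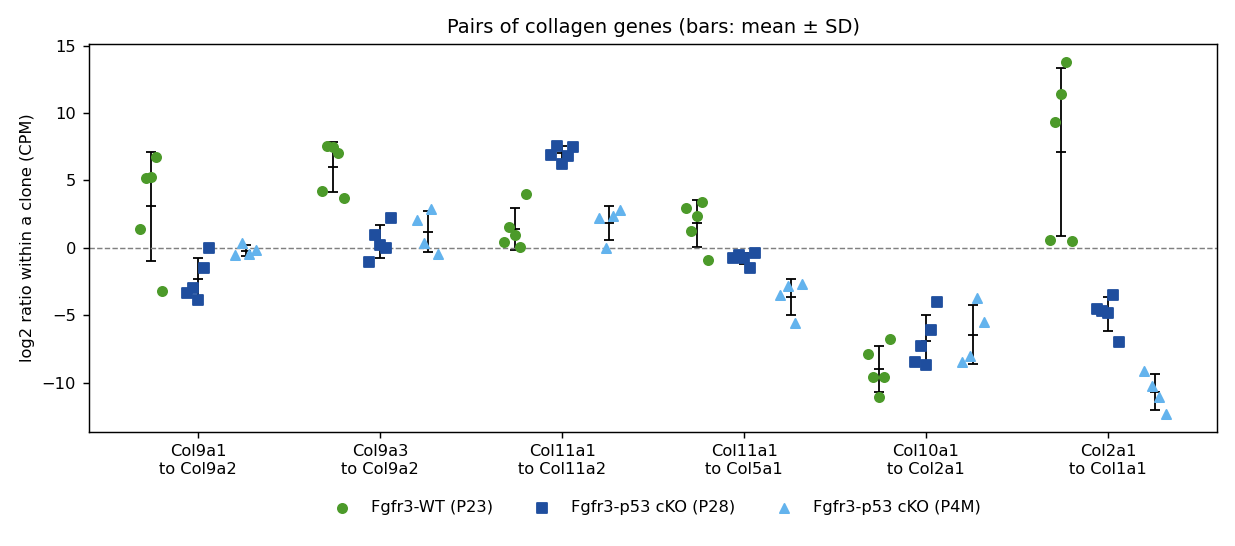
Log2 ratio of CPM for 6 pairs of collagen genes, 1 symbol for each clone, with the mean and SD of each group in black. The Col11a1 to Col11a2 ratios of the P28 clones (6.19 to 7.56) lie above those of all other clones, and the Col2a1 to Col1a1 ratios step down from Fgfr3-WT to P28 to P4M.

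Levels of different genes were compared in TPM, a unit scaled by transcript length as well as by library. Col2a1 was the highest of the 7 genes in Fgfr3-WT clones 2 to 5 (1461, 1913, 5426 and 451 TPM). In Fgfr3-WT clone 1, Col11a2 (284 TPM) and Col11a1 (208 TPM) both exceeded Col2a1 (74.3 TPM). In the P28 clones Col11a1 was at 375, 278, 258, 256 and 433 TPM beside Col2a1 at 331, 193, 262, 457 and 48.2 TPM, so the order of these genes changed from clone to clone. In the P4M clones Col11a1 (62.6, 126.05, 7.97 and 66.1 TPM) exceeded Col2a1 (14.8, 12.5, 1.03 and 0.90 TPM) in every clone. Of the summed TPM of Col11a1 and Col11a2, Col11a2 made up 57.7%, 38.8%, 46.2%, 59.8% and 11.5% in Fgfr3-WT clones 1 to 5. In the P28 clones its share was 0.972% to 2.27%, and in the P4M clones it was 21.4%, 59.8%, 19.4% and 17.97%. Of the summed TPM of the collagen IX genes in Fgfr3-WT, Col9a3 made up 61.5% to 95.4% and Col9a2 0.548% to 4.598%, so the 3 chains were not at equal message levels even where collagen IX was highest. All 7 genes together took 0.184% to 2.46% of the counts of the Fgfr3-WT libraries, 0.186% to 0.250% in P28 and 0.00466% to 0.113% in P4M.

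**Figure D4:**
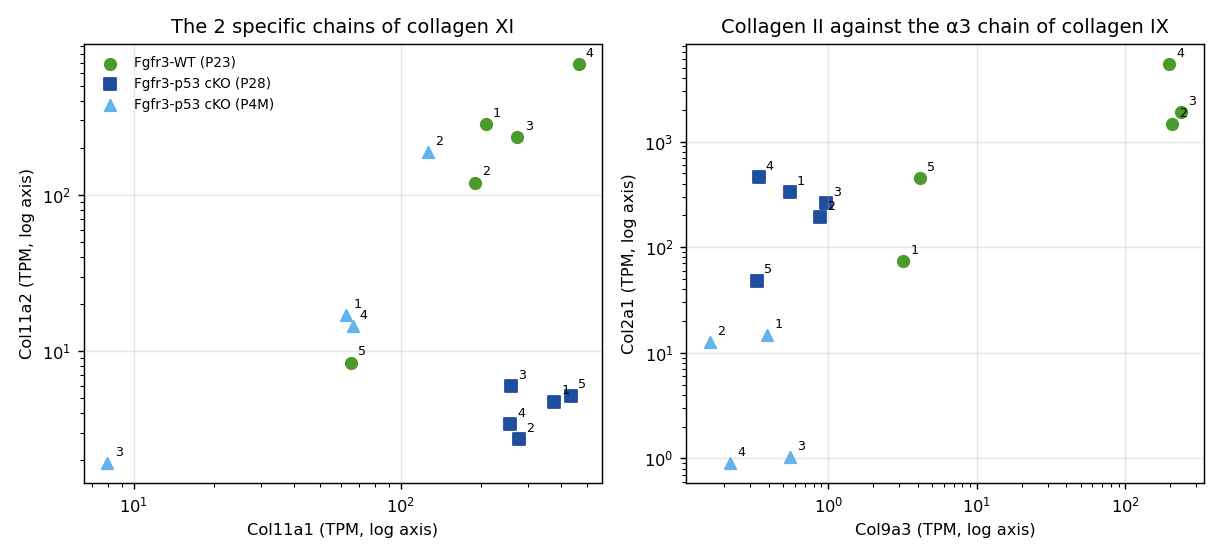
TPM of Col11a2 against Col11a1 (left) and of Col2a1 against Col9a3 (right), on log axes, with 1 symbol for each clone and its number beside it. On the left the 5 P28 clones lie between 2.73 and 6.00 TPM of Col11a2 at 256 to 433 TPM of Col11a1, and on the right Fgfr3-WT clones 2, 3 and 4 lie apart at the top.

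The promoter windows of both collagen XI genes are shown, from 250 bases before to 50 after the RefSeq start (GRCm38.p6, plus strand), with the letters TATAAA in capitals where present. The Col11a2 window ends before the start of that gene given above (34039437), whereas the Col11a1 window spans the start given above. By those starts the windows do not cover matching positions.
Col11a1, chr3:114030290-114030589: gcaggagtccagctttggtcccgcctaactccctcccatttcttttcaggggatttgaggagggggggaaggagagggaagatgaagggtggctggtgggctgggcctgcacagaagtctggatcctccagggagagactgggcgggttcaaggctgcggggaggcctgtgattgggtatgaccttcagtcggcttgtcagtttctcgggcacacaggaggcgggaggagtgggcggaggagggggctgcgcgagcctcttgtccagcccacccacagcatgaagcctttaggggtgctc
Col11a2, chr17:34038888-34039187: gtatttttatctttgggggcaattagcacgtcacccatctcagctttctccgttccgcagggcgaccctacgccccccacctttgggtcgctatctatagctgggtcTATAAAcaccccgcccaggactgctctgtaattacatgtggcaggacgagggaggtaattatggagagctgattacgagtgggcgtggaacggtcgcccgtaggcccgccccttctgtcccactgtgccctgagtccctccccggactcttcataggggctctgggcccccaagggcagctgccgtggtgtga
Windows of 5 of the 7 genes were matched (Col9a1, Col9a2, Col10a1, Col11a1 and Col11a2), and 3 sets of letters were searched on both strands. TATAAA was found in the windows of Col10a1 and Col11a2 and in 13.6% of all 32851 windows. ACAAAG was found in that of Col10a1 (18.7% of all windows) and AACAAT in none of the 5 (10.7%). The Col11a1 window had 62.3% GC and 9 CpG, and that of Col11a2 59.0% GC and 16 CpG, beside medians of 52.7% and 7 over all windows. These matches describe the letters in the windows only.

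Across the 14 clones, patterns were compared as the mean absolute difference of log2 CPM after centring each gene on its mean, over 12068 candidate genes whose log2 CPM averaged 1 or more. Among the 7 genes, Col9a1 and Col9a3 were most alike (1.29), while Col11a1 and Col11a2 differed by 2.54. Ppp1r3c (1.44) and Itih2 (1.45) were among the 3 genes nearest to Col2a1. Ifit3 was nearest to both Col9a3 (1.07) and Col9a1 (1.78), followed by Serpina3n (1.38) and Faah (1.67) for Col9a3 and by Ucma (1.93) and Fzd9 (1.93) for Col9a1. For Col10a1 they were Aff3 (0.923), Veph1 (1.16) and Sned1 (1.18), and for Col9a2 Vnn1 (0.650), Tspan7 (0.663) and Pdgfrl (0.717). Mmp16 (0.584), Spats2l (0.621) and Patj (0.707) were nearest to Col11a1, and Tgfa (1.08), Trpv4 (1.10) and Hmga1b (1.39) to Col11a2. The likeness is a description over 14 clones that share library submissions within a genotype, with no test.

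The other genes of the cartilage program were taken from lists of named genes. Of 15 non-collagen partners in cartilage matrix, 12 were tested, of which 6 were lower and 1 higher in P28 and 9 were lower and none higher in P4M against Fgfr3-WT. The shares over all genes were 19.7% lower and 19.2% higher in P28, and 23.6% and 22.3% in P4M. The median log2 fold change of the partners was -2.90 in P28 and -5.92 in P4M, the latter unchanged when Scrg1, which had 0 counts in all 4 P4M clones, was set at its limit. Ucma, a small secreted protein of immature chondrocytes, ranged from 0.356 to 3678 CPM in Fgfr3-WT and reached at most 7.06 CPM in P28 and 0.0461 CPM in P4M (log2 fold change over all cKO clones -12.07, adjusted p = 0.000243). Ucma, Scrg1, Chad and, among the genes below, Foxa3 fell below the filter when only the cKO groups were fitted and thus reached the test with the help of the Fgfr3-WT clones, where they were high, so their p values are given as a description. The counts and medians of the partner list include Ucma, Scrg1 and Chad and are a description to that extent. The same was not tested for other partners, such as Cnmd, with medians of 168 CPM in Fgfr3-WT, 0.0201 in P28 and 0 in P4M. Scrg1, a gene induced as stromal cells form cartilage, had 0.277 to 291 CPM in Fgfr3-WT and at most 1.20 CPM in P28, and the Fgfr3-WT mean was at least 1246-fold above the limit of 3 counts per P4M library. Hapln1, which links aggrecan to hyaluronan, was lower by a log2 fold change of -2.72 (adjusted p = 0.00721) and Chad, the cell-binding matrix protein chondroadherin, by -4.16 (adjusted p = 0.00217) over all cKO clones. Hapln1 was not called in P28 against Fgfr3-WT. Over the settings that left out no single clone it had -1.42 to -1.33 there (adjusted p = 0.163 to 0.294). The Chad call in P28 (-3.42, adjusted p = 0.0226) was lost without Fgfr3-WT clone 3 (-1.95, adjusted p = 0.0975) and without P28 clone 4 (adjusted p = 0.0511).

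Among 14 regulators of cartilage genes, 12 were tested, of which 3 rose and 4 fell in P28 and 4 rose and 6 fell in P4M, beside 19.2% higher and 19.7% lower of all genes in P28 and 22.3% and 23.6% in P4M. Their median log2 fold change was 0.25 in P28 and -1.14 in P4M. Sox5 and Sox6, which act with Sox9 on the Col2a1 and Col11a2 enhancers, were lower over all cKO clones by -3.57 (adjusted p = 0.000170) and -3.04 (adjusted p = 4.67e-05). In P28 against Fgfr3-WT alone, Sox6 was called lower but Sox5 was not. Over the settings that left out no single clone, Sox5 had -1.51 to -1.46 there (adjusted p = 0.0384 to 0.108). Both were also lower in P4M than in P28 (-4.11, adjusted p = 0.00978, and -3.06, adjusted p = 0.00722). Sox9 itself, named after its values were seen, ranged from 97.9 to 187 CPM in Fgfr3-WT, 18.1 to 57.5 CPM in P28 and 4.01 to 28.5 CPM in P4M. Its log2 fold change was -2.16 (adjusted p = 0.00457) in P28 and -3.39 (adjusted p = 0.000536) in P4M against Fgfr3-WT, and it had no called difference between P4M and P28 (-1.23, adjusted p = 0.161). The genes that rose most were Pth1r, the receptor of parathyroid hormone-related protein (3.10, adjusted p = 0.0357), and Runx3, a factor of chondrocyte maturation and bone formation (2.73, adjusted p = 0.0174). The call of Pth1r was lost without Fgfr3-WT clone 1, 3 or 5, P28 clone 4 or 5, or P4M clone 1 or 2 (adjusted p up to 0.0729). It was also lost in 1 of the 5 alternative fits that kept all clones (adjusted p = 0.0638). In P28 against Fgfr3-WT alone, Pth1r was not called. Over the settings that left out no single clone it had 2.64 to 2.79 there (adjusted p = 0.0256 to 0.139). The P28 call of Runx3 (2.47, adjusted p = 0.0420) was lost without Fgfr3-WT clone 1 or 4, P28 clone 2, 4 or 5, or any P4M clone, without the filter and with only the groups compared (adjusted p up to 0.0874).

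All 12 genes of hypertrophic chondrocytes beside Col10a1 were tested. In P28, 3 rose and 2 fell, and in P4M 6 rose and 2 fell, with medians of 1.31 and 2.56, while Col10a1 itself fell in P4M. Of all genes tested, 19.2% rose and 19.7% fell in P28, and 22.3% rose and 23.6% fell in P4M. The P28 counts of this list are near those shares. Panx3, a channel of prehypertrophic chondrocytes and osteoblasts, and Alpl, the alkaline phosphatase of mineralizing cells, rose by 8.31 (adjusted p = 0.00481) and 5.38 (adjusted p = 0.0175) over all cKO clones. In P28, however, Panx3 had a median of 0.280 CPM and a range of 0.0478 to 165 CPM, beside a median of 0.228 and a maximum of 1.05 CPM in Fgfr3-WT, so most P28 clones lay at the Fgfr3-WT level. All P4M clones had 54.1 CPM or more. Panx3 thus reached the test through the cKO clones in which it was high, and its p value is given as a description. The P28 call of Alpl (4.83, adjusted p = 0.0363) was lost without Fgfr3-WT clone 2, 3 or 4, without P28 clone 4 or 5, without the filter and with only the groups compared (adjusted p = 0.0610 to 0.0937). Several of these genes are also genes of osteoblasts. Foxa3 (-5.15, adjusted p = 0.00134) and Spp1, the matrix protein osteopontin (-1.84, adjusted p = 0.000227), fell.

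Of the 8 other fibrillar collagens, 3 rose and 1 fell in each of P28 and P4M against Fgfr3-WT, with medians of 2.29 and 2.35. The shares over all genes were 19.2% higher and 19.7% lower in P28, and 22.3% and 23.6% in P4M. The one that fell was Col27a1, a fibrillar collagen of cartilage, from 64.6 to 273 CPM in Fgfr3-WT to 27.4 to 88.2 CPM in P28 and 1.80 to 3.59 CPM in P4M (-3.86 over all cKO clones, adjusted p = 5.92e-06). Col1a1 rose from 1.45 to 1029 CPM in Fgfr3-WT to 14680 to 22012 CPM in P28 and 7377 to 50643 CPM in P4M (6.47, adjusted p = 0.00452). Col24a1 (4.01, adjusted p = 0.0153) and Col5a2 (1.53, adjusted p = 0.0494) were also higher, the latter called no longer once any clone other than Fgfr3-WT clone 1 or P4M clone 3 was left out (adjusted p up to 0.0961). The Col5a2 call was also lost in 2 of the 5 alternative fits that kept all clones (adjusted p up to 0.0663). Col24a1 had 54 counts over the Fgfr3-WT libraries, 44 of them in a single clone. It reached the test through the cKO clones, where it was high, so its p value is given as a description. Of 9 fibril-associated and short-chain collagens, 8 were tested, with 1 higher and 1 lower in P28 and 2 higher and 1 lower in P4M. These counts are near or below the same shares. Col8a2, the closest relative of Col10a1 in the list together with Col8a1, rose by 5.64 (adjusted p = 0.000342) and Col20a1 fell by 1.99 on the log2 scale (adjusted p = 0.000783).

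Of 27 genes that modify, secrete, trim or cross-link collagen, 4 rose and 7 fell in P28 and 3 rose and 8 fell in P4M, with medians of -0.32 and -0.45. Against the shares over all genes (19.2% higher and 19.7% lower in P28, 22.3% and 23.6% in P4M) these counts are near the background. Loxl2, a lysyl oxidase that cross-links collagen, and Adamts2, which removes the amino-terminal propeptide, rose by 7.88 (adjusted p = 0.000126) and 5.71 (adjusted p = 0.00117) over all cKO clones. The prolyl 3-hydroxylases P3h2 (-3.04, adjusted p = 0.000441) and P3h3 (-1.67, adjusted p = 0.000654) fell.

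**Figure D5:**
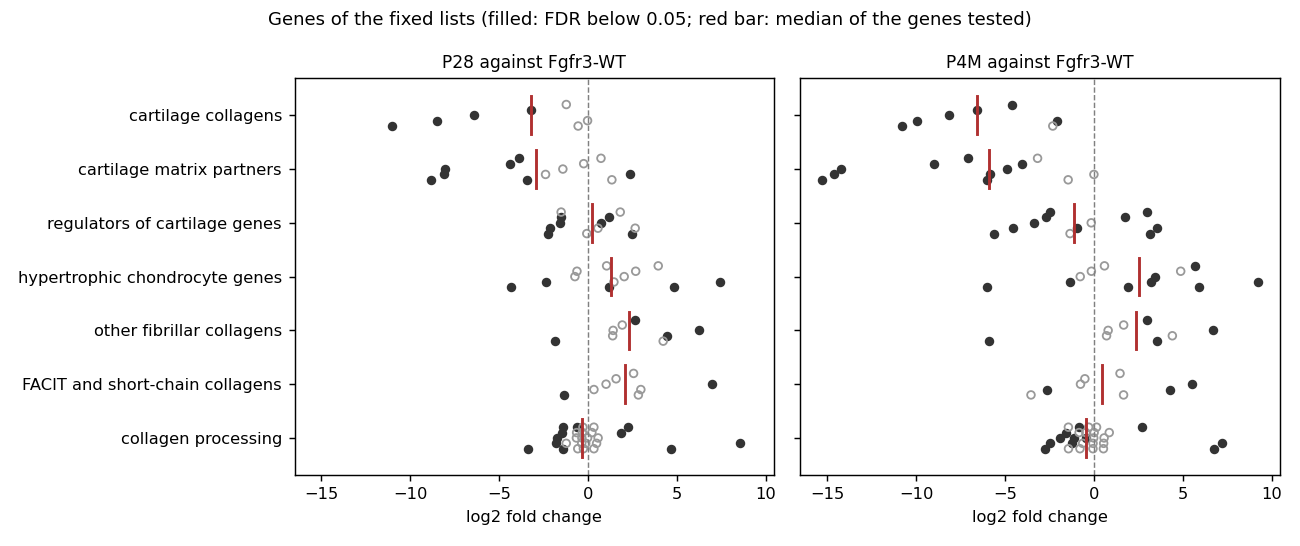
Log2 fold change of the genes of 7 lists in P28 (left) and P4M (right) against Fgfr3-WT, 1 circle for each gene tested, filled at an FDR below 0.05, with a red bar at the median of the list. The cartilage collagens (medians -3.21 and -6.55) and their matrix partners (-2.90 and -5.92) lie to the left, the other fibrillar collagens (2.29 and 2.35) to the right. Both lists on the left include genes that reached the test with the help of the Fgfr3-WT clones.

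Some marker genes of other marrow cells differed between the Fgfr3-WT and cKO clones. The summed level of 9 haematopoietic markers was 16.4 to 145 CPM in Fgfr3-WT, 3.37 to 22.3 CPM in P28 and 5.05 to 9.10 CPM in P4M. Among the Fgfr3-WT clones it was highest in clone 4 (145 CPM), which had the highest Col2a1, and next in clone 5 (64.2 CPM), which had little Col2a1 for that group and no count of Col9a1. Of the 9, 3 could be tested, of which Cd68 (-3.14, adjusted p = 0.000787) and Lyz2 (-2.96, adjusted p = 0.00119) were lower and Csf1r (1.58, adjusted p = 0.0383) higher over all cKO clones. Ptprc was at 0 in 4 of 5 Fgfr3-WT clones and Adgre1 in all 5. The summed level of 6 endothelial markers was 0.0809 to 0.740 CPM in Fgfr3-WT, 0.410 to 4.49 CPM in P28 and 2.75 to 12.8 CPM in P4M, and Kdr, the only one of them that was tested, was higher over all cKO clones (4.59, adjusted p = 0.00371). The mean of Kdr was 0.122 CPM in Fgfr3-WT and 3.72 CPM over the cKO clones, through which it reached the test. Its p value is therefore given as a description. Csf1r had means of 0.223 CPM in Fgfr3-WT and 0.684 CPM over the cKO clones. It may thus also have reached the test through the cKO clones, and its p value is a description too. The Csf1r call was lost without Fgfr3-WT clone 1, 2, 4 or 5, P28 clone 1, 3 or 4, or P4M clone 3 (adjusted p up to 0.0899). The part of these cells in the collagen levels was not tested.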

How the data were processed

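Bulk RNA-seq of 14 clones was analysed from 2 deposited tables. By the methods and the processing notes, the authors sequenced single-end reads of 50 bases from SMART-Seq v4 cDNA, aligned them to mm10 with TopHat and Bowtie2, and counted non-ambiguously mapped reads with HTSeq. The count table, as deposited by the authors, holds raw counts for 30503 genes. The TPM table was normalized by the authors and lists 55427 genes, and the program behind it is not given in the sources used here.

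Counts were tested with edgeR 4.0.16 in R 4.3.3. Genes were filtered by filterByExpr (17358 kept), libraries were scaled by TMM, and 1 robust quasi-likelihood model of 3 groups was fitted to all clones. P values were adjusted by Benjamini-Hochberg over all genes tested, with calls at an FDR of 0.05. Ratios were differences of log2 CPM (prior count 2), compared by exact permutation tests in scipy 1.17.1. Clones were grouped by their labels and numbered in order of deposition. Named genes were all 7 collagens, up to 4 called genes a list (2 with the lowest and 2 with the highest log2 fold change over all cKO clones) and the 3 genes nearest to each collagen, of which 1 is not reported here. The collagens and lists were chosen with earlier results of these data known. Alternatives were RLE scaling, no scaling factors, collagens left out of library totals, no filter, DESeq2 1.42.0, fits of only the groups compared, and fits without each clone. The steps were tested on simulated data. A count of 0 allows up to 3 counts, which covers counting error only.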

Additional observations from a re-analysis of the deposited data

Results flagged for a closer look

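Col9a2 in P4M clone 4 (0.150 CPM, 8 counts) stood apart from the other 3 P4M clones, each of which held a single count. The gap made up 0.956 of the range of the group. It was the only 1 of 39 groups of clones with a value apart by this test, and chance marks about 1 group in 20.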

How the results depend on the processing

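Of the counts of called collagen genes, that of P4M against P28 depended most on the processing. It was 2 as reported, 1 without the filter, 5 with DESeq2 and 4 with only the groups compared, and it ranged from 1 to 4 in fits that left out a clone. All genes called in that comparison numbered 1254 as reported, 2814 with DESeq2, 3051 with only the groups compared and 496 without P28 clone 3. Without scaling factors the split there was 400 higher and 805 lower, beside 580 and 674. Leaving out a clone gave 2 to 4 collagen genes for P28 against Fgfr3-WT, with 2 only without Fgfr3-WT clone 4. Between P4M and Fgfr3-WT it gave 5 to 7 and between all cKO clones and Fgfr3-WT 5 to 7. Of the 6 ratios, 3 to 5 differed between P28 and Fgfr3-WT, 0 to 4 between P4M and Fgfr3-WT and 0 to 3 between the cKO groups. The counts of 0 arose in fits with fewer clones, whose smallest possible p is larger, and say nothing about stability.

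The sign of uncalled differences changed in some settings. Col11a1 in P28 against Fgfr3-WT was 0.10 without scaling factors, 0.023 without the filter and 0.018 without Fgfr3-WT clone 3 on the genes of the full fit, and -0.27 to 0.42 with a clone left out. Leaving out a clone gave -1.35 to 0.25 for Col10a1 in P28 against Fgfr3-WT. For P4M against P28 it gave -1.26 to 0.98 for Col9a1, -0.095 to 0.80 for Col1a1 and -0.064 to 0.92 for Cd68. The ratio of Col10a1 to Col2a1 in P4M against P28 was -0.035 with a prior count of 0.5 and -0.41 to 1.20 with a clone left out. The cause was not tested.

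Col9a1 fell below the filter without any of Fgfr3-WT clones 1 to 4 and in 2 of the fits of only the groups compared, where Col9a2 did so once. In fits added after the data were seen, which kept the genes of the full fit, Col9a1 had log2 fold changes of -9.76 or lower in P28 and of -9.55 or lower in P4M against Fgfr3-WT. No paired analysis was possible because the sample numbers in the labels are running numbers within each library submission and pair no clones. Depth limits the values of Col9a1, Col9a2, Col9a3 and Col10a1 in P4M, where no library held more than 24 counts of any of them.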
